A study of Mus musculus with 8 samples.

Results

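The 5 genes that encode the ligands of the vascular endothelial growth factor (VEGF) family, Vegfa, Vegfb, Pgf, Vegfc and Figf (also named Vegfd), were described in Lewis lung carcinoma (LLC) tumors, as 5 of 22367 protein-coding genes of the GENCODE vM1 annotation of mouse. The members were chosen by gene family and not by their measured values. Nuclei of subcutaneous isografts in C57BL/6J mice were digested with micrococcal nuclease, chromatin was precipitated with antibodies to 3 methylation marks (H3K4me3, H3K27me3, H3K36me3) and to H3K9ac, and the position of each nucleosome-sized peak was deposited. LLC-NR isografts are sensitive to VEGF-Trap, a soluble decoy receptor that binds VEGF ligands, and LLC-R isografts grew from cells selected in vivo for resistance to it. Each line and mark had 1 library, so there were 8 libraries, no replicates and no test between the lines. The libraries were made from whole tumor tissue, which also holds host cells, and the sources used here do not say whether a library pooled tumors.

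VEGF ligands are secreted factors that act on receptor tyrosine kinases of blood and lymph vessels. VEGF-A acts through Flt1 and Kdr and drives the sprouting of blood vessels, VEGF-B and placental growth factor (Pgf) bind Flt1, and VEGF-C and VEGF-D bind Flt4 and drive the growth of lymph vessels. VEGF-Trap binds VEGF-A, VEGF-B and placental growth factor. H3K4me3 and H3K9ac are found at promoters in use, H3K27me3 is laid down by Polycomb complexes at silenced promoters, and H3K36me3 marks the bodies of transcribed genes.

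The libraries held 5660429 to 9101676 peaks on chromosomes 1 to 19, X and Y. Every peak is 147 bp wide, none overlaps another of its library, and no height is given, and a promoter of 1.5 kb held at most 9 peaks in any library, a number that saturates. The mean over all promoters was 4.91 H3K4me3 peaks for LLC-NR against 4.60 for LLC-R, 5.51 against 4.96 for H3K9ac, 4.55 against 5.45 for H3K27me3 and 3.20 against 4.96 for H3K36me3. LLC-R was thus lower in the first pair of marks and higher in the second. The libraries also differed in read depth in the same direction. The ratio of uniquely mapped reads, LLC-R over LLC-NR, was 0.83 for H3K4me3, 0.57 for H3K9ac, 2.14 for H3K27me3 and 2.32 for H3K36me3. The part of read depth in the raw peak numbers and the states was not tested. Among marker genes, the 5 genes used in all cells had a median of 7 H3K4me3 promoter peaks in both lines, the 5 genes silent outside 1 tissue had 5 (LLC-NR) and 3 (LLC-R), and the 4 epithelial genes had 6 in both. The label gives lung as the tissue, and the 3 lung genes had a median of 5 in both lines, which is also the median of all promoters. Host markers were at 5.5 and 4.5 for the 4 leukocyte genes, at 5.5 and 4.5 for the 4 endothelial genes, and at 6 in both lines for the 3 fibroblast genes. Their part in the values of the ligands was not tested. In such bulk tissue fewer marked cells and less marking per cell cannot be told apart. In H3K9ac the median was 7 (LLC-NR) and 6 (LLC-R) for the genes used in all cells, and 5 and 6 for those silent outside 1 tissue. The H3K9ac medians of these lists were thus equal in LLC-R.

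Vegfa, Vegfb, Pgf and Vegfc are high-CpG promoters (HCPs), as are 53.9% of promoters, and Figf is a low-CpG promoter (LCP), as are 28.4%. The promoter was the stretch that starts 1 kb before the transcription start site (TSS) and ends 0.5 kb after it. It held 67 CpGs at Vegfa, 92 at Vegfb, 47 at Pgf, 107 at Vegfc and 8 at Figf, beside a median of 47 over all promoters. The 150 bases just before each TSS are shown because they hold the motifs next to the TSS. Sequence and coordinates are from NCBIM37 (mm9), in the direction of the gene, and no annotated exon of any gene overlaps these windows. Capitals mark matches to GGGCGG, the core of the binding site of Sp-family factors, and to TGANTCA, the core of the AP-1 site, on either strand. The windows are chr17:46169327-46169476 on the minus strand for Vegfa, chr19:7062142-7062291 on the minus strand for Vegfb, chr12:86518247-86518396 on the minus strand for Pgf, chr8:55162736-55162885 on the plus strand for Vegfc and chrX:160811160-160811309 on the plus strand for Figf.
Vegfa: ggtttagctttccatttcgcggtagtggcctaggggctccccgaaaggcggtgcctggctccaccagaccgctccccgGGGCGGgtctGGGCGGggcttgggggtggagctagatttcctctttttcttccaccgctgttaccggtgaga
Vegfb: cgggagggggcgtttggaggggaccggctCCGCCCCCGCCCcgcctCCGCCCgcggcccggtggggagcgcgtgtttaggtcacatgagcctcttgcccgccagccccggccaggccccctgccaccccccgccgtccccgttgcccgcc
Pgf: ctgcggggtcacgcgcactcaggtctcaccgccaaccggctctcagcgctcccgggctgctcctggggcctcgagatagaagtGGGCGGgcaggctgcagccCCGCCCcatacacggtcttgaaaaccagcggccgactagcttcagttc
Vegfc: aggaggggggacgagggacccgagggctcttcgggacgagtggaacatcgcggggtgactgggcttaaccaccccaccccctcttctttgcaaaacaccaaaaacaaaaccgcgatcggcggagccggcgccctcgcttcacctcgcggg
Figf: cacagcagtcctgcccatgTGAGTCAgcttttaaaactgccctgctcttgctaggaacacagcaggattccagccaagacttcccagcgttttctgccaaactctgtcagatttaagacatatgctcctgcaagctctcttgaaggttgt

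These windows held 10 CpGs at Vegfa, 18 at Vegfb, 13 at Pgf, 15 at Vegfc and 1 at Figf. Over the whole promoter GGGCGG was matched 9 times at Vegfb, 2 times each at Vegfa, Pgf and Vegfc, and 0 times at Figf, and 62.1% of all promoters held a match. TATAAA, the core of the TATA box, was matched 3 times at Figf and 1 time each at Vegfa and Pgf (50.7% of promoters), and TGANTCA 1 time, at Figf (29.4%). TGANTCA reads the same on both strands and was counted once, and neighbouring matches to GGGCGG may share bases, as at Vegfb. With 1 TSS per gene, the one shared by most transcripts, no TSS of another protein-coding gene lay inside a ligand promoter. Alternative TSSs of other genes and of the ligands themselves were not considered. The promoter of Vegfb however shared 741 bases with the end of Dnajc4, which runs in the same direction, 285 of them exonic, and that of Figf shared 634 bases with the end of Pir, 559 of them exonic.

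Vegfa (ENSMUSG00000023951.9, chr17:46153942-46169326, minus strand, 14 transcripts) was the only ligand whose promoter had fewer peaks of both H3K27me3 and H3K36me3 in LLC-R. Of H3K4me3 the LLC-NR library gave 6 peaks against 5 for LLC-R, and of H3K9ac both gave 6. Of H3K27me3 it held 6 (LLC-NR) and 4 (LLC-R), at percentiles 76.2 and 15.1 of all promoters of the same library. At least 2 H3K27me3 peaks fewer were seen at 3.46% of promoters, while 58.5% had more in LLC-R. Of H3K36me3 it held 6 (LLC-NR) and 5 (LLC-R), at percentiles 95.6 and 44.5, where 78.0% of promoters had more and 5.78% fewer.

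Pgf (ENSMUSG00000004791.6, chr12:86507589-86518246, minus strand, 1 transcript) had more promoter peaks of every mark in LLC-R. Given as LLC-NR and then LLC-R, the numbers were 5 and 6 for H3K4me3, 5 and 7 for H3K9ac, 4 and 6 for H3K27me3, and 2 and 7 for H3K36me3. In H3K9ac these were percentiles 28.5 and 92.1, and 5.4% of promoters had at least 2 peaks more. In H3K36me3 the difference of 5 peaks was reached by 3.63% of promoters. Vegfb (ENSMUSG00000024962.7, chr19:7056963-7062141, minus strand) held 6 H3K4me3 peaks and 7 H3K9ac peaks in both lines, the most H3K9ac peaks of the 5 ligands in LLC-NR. Its H3K27me3 peaks numbered 4 against 7, and its H3K36me3 peaks 4 against 5, with LLC-R the higher.

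Vegfc (ENSMUSG00000031520.4, chr8:55162886-55271808, plus strand) carried the most H3K27me3 of the ligands in both lines. It held 7 (LLC-NR) and 8 (LLC-R), at percentiles 92.5 and 97.6, and 0.0939% of promoters held more than 8 in LLC-R. Its H3K4me3 peaks numbered 5 and 6, its H3K9ac peaks 6 and 5, and its H3K36me3 peaks 3 and 5. Figf (ENSMUSG00000031380.9, chrX:160811310-160840582, plus strand) was the ligand with the fewest H3K4me3 peaks, 2 (LLC-NR) and 4 (LLC-R), at percentiles 10.8 and 33.1. It held 6 and 5 H3K9ac peaks, 3 and 6 H3K27me3 peaks, and 4 and 7 H3K36me3 peaks. The plot of promoter peak numbers shows these values beside the mean of all promoters.

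**Figure D1:**
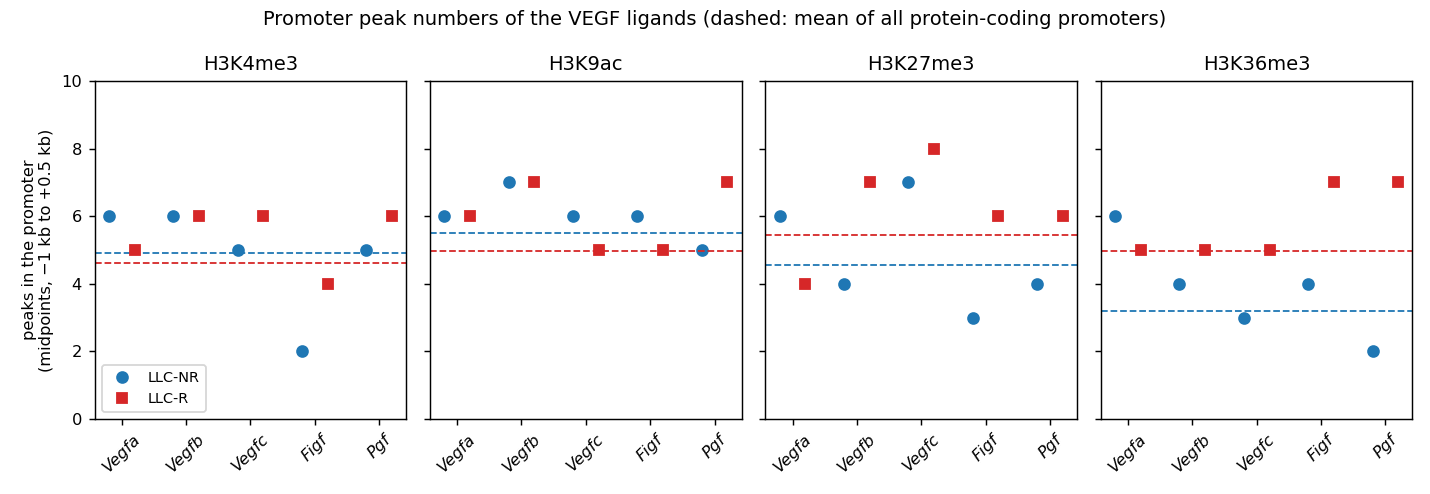
Number of peak midpoints in the promoter of each VEGF ligand (y axis, peaks) in the 4 marks, with LLC-NR as circles and LLC-R as squares, 1 library each. Dashed lines are the means of all protein-coding promoters of the same library. Vegfa lies below the LLC-R mean in H3K27me3, where the other 4 ligands lie above it.

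In LLC-R, 3 ligands had more peaks of H3K4me3, 1 of H3K9ac, 4 of H3K27me3 and 4 of H3K36me3, beside 25.6%, 19.2%, 58.5% and 78.0% of promoters, and 1, 2, 1 and 1 had fewer, beside 43.5%, 50.6%, 15.0% and 5.78%. Counted over the 5 ligands, a difference of at least 2 peaks in either direction was used to describe the lines. In H3K4me3, 1 ligand (Figf) had at least 2 peaks more in LLC-R, beside 9.0% of all promoters, and 0 had at least 2 fewer, beside 18.4%. In H3K9ac, 1 ligand (Pgf) had at least 2 more and 0 had at least 2 fewer, beside 5.4% and 22.1%. In H3K27me3, 3 ligands (Vegfb, Figf and Pgf) had at least 2 more, beside 31.9%, and 1 (Vegfa) at least 2 fewer, beside 3.46%. In H3K36me3, 3 ligands (Vegfc, Figf and Pgf) had at least 2 more and 0 at least 2 fewer, beside 56.0% and 1.11%. The median difference of the ligands was 1 peak in H3K4me3 and 0 in H3K9ac, where all promoters had 0 and -1, and 2 peaks in H3K27me3 and 2 in H3K36me3, where all promoters had 1 and 2. With so few peaks per promoter the exact 95% interval of the scaled ratio, which covers counting error only, held 0 on the log2 scale for all 20 pairs of ligand and mark. For Pgf in H3K36me3, the largest difference of the 20 with 2 and 7 peaks, it ran from -1.22 to 4.48. The interval treats peaks as independent and could hardly exclude 0 at such numbers, so nothing is concluded from it.

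**Figure D2:**
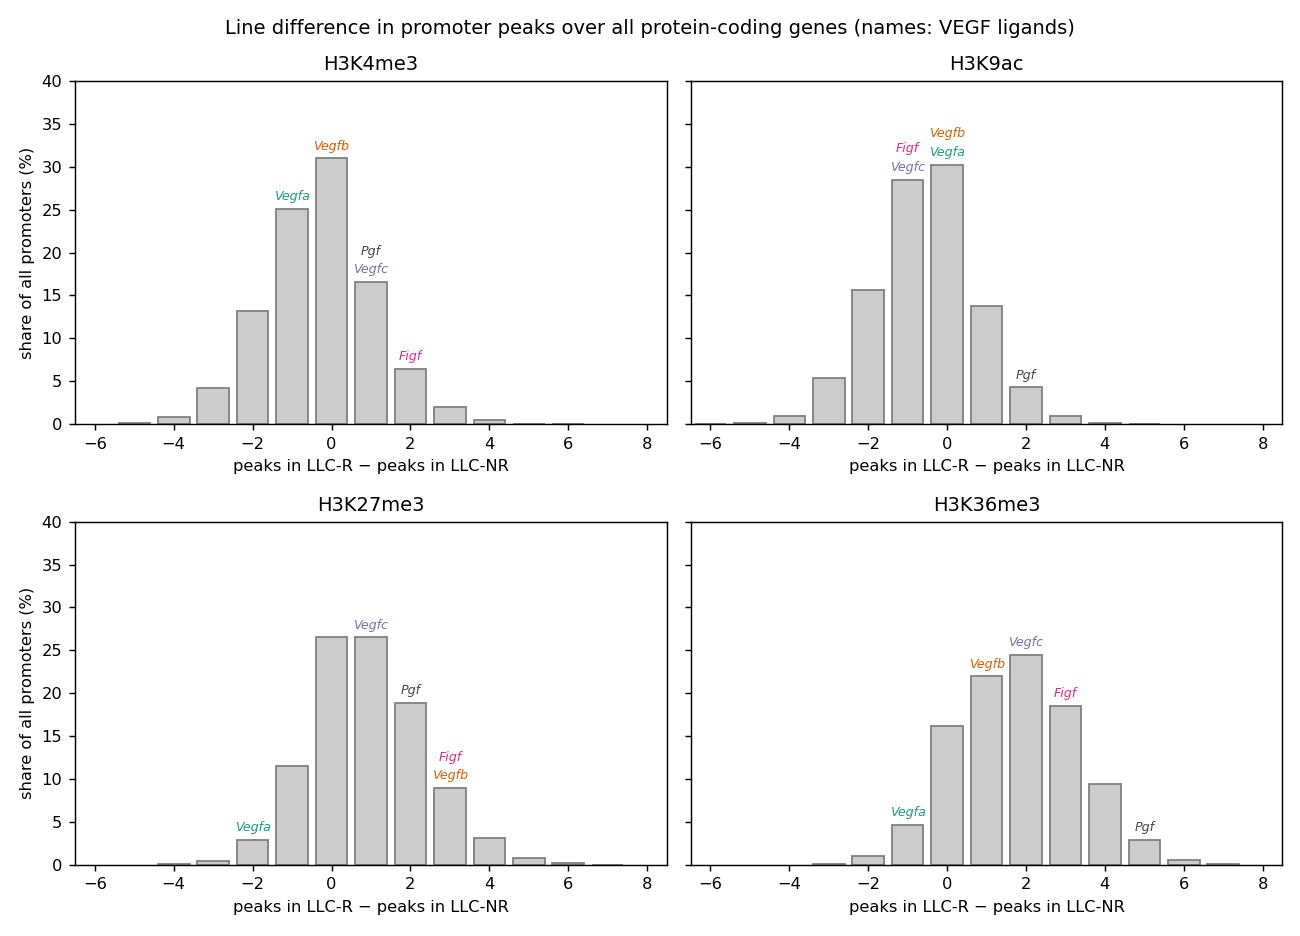
Share of all 22367 promoters (y axis, %) by the difference in peak number between the LLC-R and the LLC-NR library (x axis, peaks), with 1 panel a mark and the ligands named above their bar. Vegfa stands in the left tail of H3K27me3 and H3K36me3, and Pgf in the right tail of H3K9ac and H3K36me3.

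Scaled so that the mean of all promoters was equal in both lines, the peak number was higher in LLC-R at 4 ligands for H3K4me3, 3 for H3K9ac, 3 for H3K27me3 and 3 for H3K36me3, beside 52.6%, 45.8%, 49.9% and 46.9% of all promoters. On the log2 scale, with a pseudocount of 10% of that mean, the scaled H3K27me3 difference was -0.77 at Vegfa, 0.50 at Vegfb, 0.30 at Pgf, -0.06 at Vegfc and 0.66 at Figf. Vegfa and Vegfc were thus the ligands with a negative scaled difference, and that of Vegfc was small. The percentile of Vegfa was 76.2 (LLC-NR) and 15.1 (LLC-R). At Vegfc both the raw number and the percentile, 92.5 and 97.6, were higher in LLC-R.

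The promoters were then placed in histone modification states, with the mean of all promoters as the threshold of each mark. Promoters at or above the mean of H3K4me3 or H3K9ac are active when H3K27me3 lies below its mean and bivalent when it does not. At or above the H3K4me3 mean were 4 ligands in LLC-NR and 4 in LLC-R, beside 63.8% and 58.8% of promoters, with Figf below in both. For H3K9ac it was 4 (all but Pgf) and 5, beside 62.2% and 70.4%, and for H3K27me3 it was 2 (Vegfa and Vegfc) and 4 (all but Vegfa), beside 56.5% and 58.7%. For H3K36me3, which does not enter the states, it was 3 (Vegfa, Vegfb and Figf) and 5, beside 43.5% and 69.7%. Vegfa was therefore bivalent in LLC-NR and active in LLC-R, a pair of states shared by 20.8% of the 10806 promoters that were bivalent in LLC-NR. Vegfb, Pgf and Figf were active in LLC-NR and bivalent in LLC-R, as were 40.3% of the 6676 promoters active in LLC-NR. Vegfc was bivalent in both, like 72.4% of bivalent promoters. Several of these states turned on 1 peak. In LLC-NR, Vegfb and Pgf were 1 peak short of the H3K27me3 threshold, and Pgf was active by H3K4me3 alone, where 1 peak fewer would fall below the mean. In LLC-R, Pgf and Figf would be below the H3K27me3 mean with 1 peak fewer. Figf was placed by H3K9ac alone in both lines, and 1 H3K9ac peak fewer would bring it below that mean in either. For Vegfa and Vegfc no single peak more or fewer would change the state in either line.

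The peak positions show where these differences lay. In Vegfa the H3K27me3 peaks of LLC-NR had midpoints at -976, -633, -435, -206, 86 and 466 bp from the TSS. Those of LLC-R were at -957, -620, -382 and 71 bp, so the peaks at -435, -206 and 466 bp had no counterpart within 37 bp. The stretch without a peak around the Vegfa TSS was 145 bp long in the H3K27me3 library of LLC-NR and 306 bp in that of LLC-R, at percentiles 38.9 and 79.0 of all genes. In the other marks this stretch was 78 to 176 bp long at Vegfa. In Figf the H3K4me3 library of LLC-NR had no peak upstream of the TSS in the promoter, and 984 bp were free (percentile 89.6, all-gene median 158 bp), while LLC-R had midpoints at -871, -466 and -45 bp and 292 free bp.

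**Figure D3:**
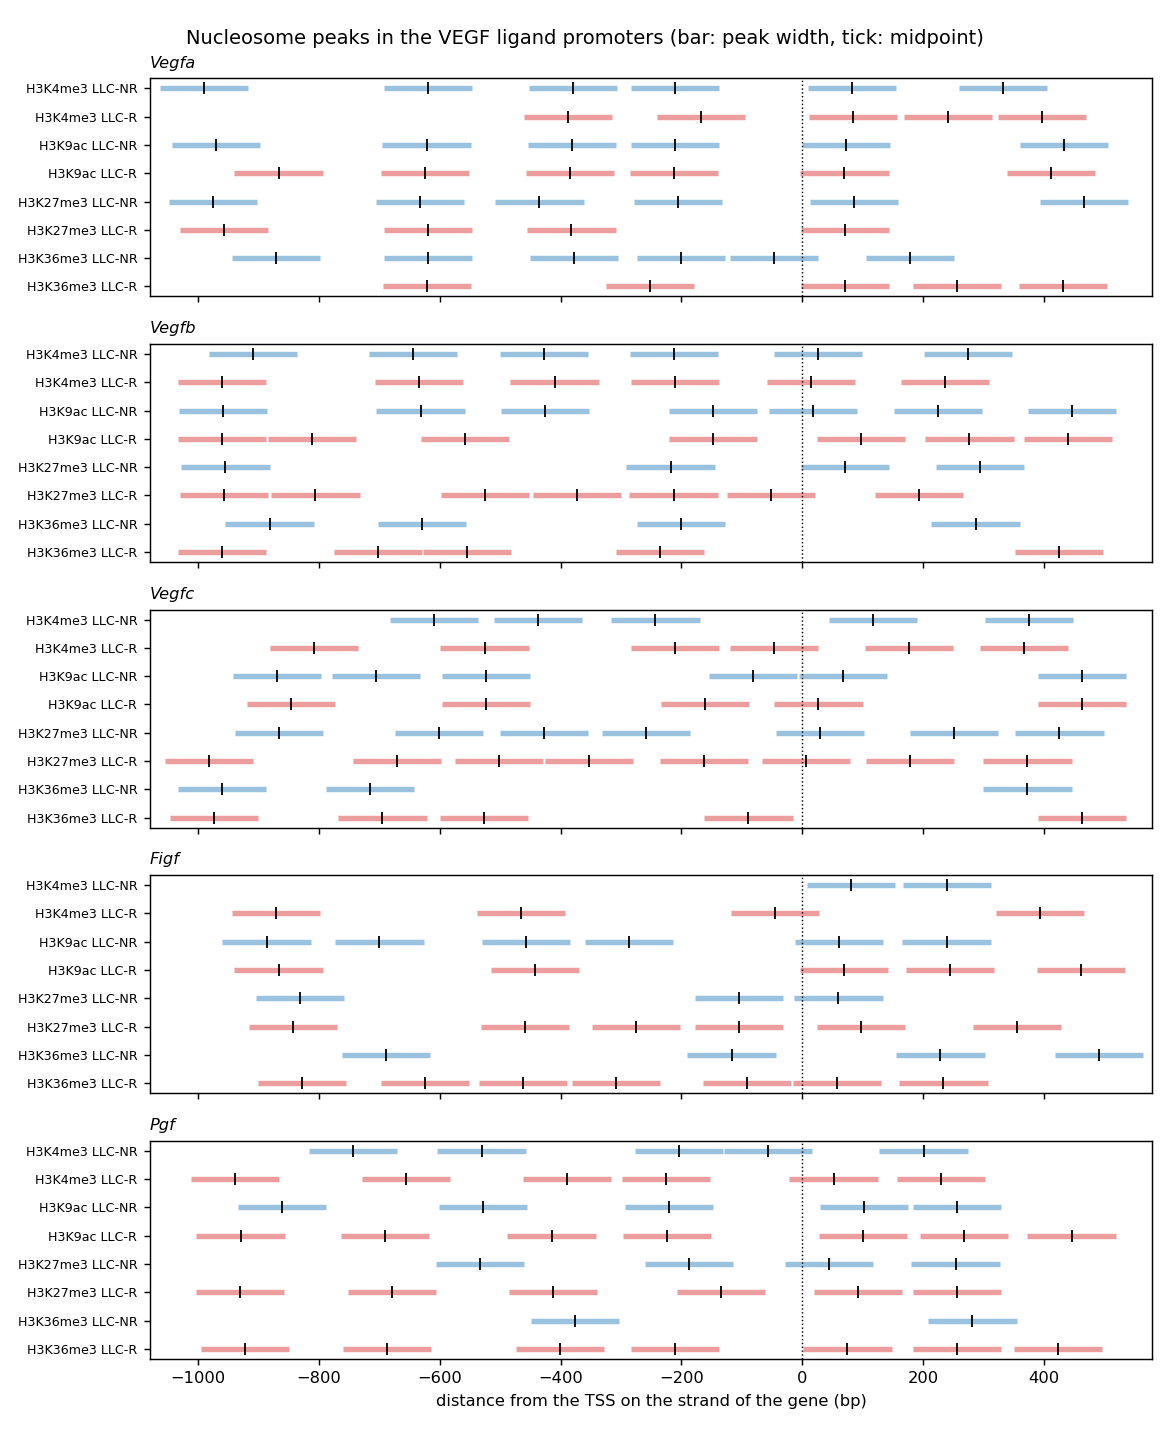
Peaks of the 8 libraries in the promoters of the 5 ligands, by distance from the TSS on the strand of the gene (x axis, bp), with LLC-NR in blue and LLC-R in red. Bars are the 147-bp peaks and ticks their midpoints. Vegfa shows columns of peaks at the same place in up to 7 libraries, and Pgf a column near -930 bp in the 4 LLC-R libraries. The H3K9ac peak of LLC-NR with its midpoint at -862 bp overlaps that column.

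Vegfa nucleosomes sat at the same place in most libraries whatever the mark. In a window of 21 bp, 7 of 8 libraries had a midpoint at -633 to -619 bp and 7 at 70 to 86 bp, 6 at -388 to -378 bp, and 5 at -212 to -201 bp. The neighbouring positions were 240, 171 and 282 bp apart, the last across the TSS. The library missing was H3K4me3 of LLC-R at the position near -621 bp and H3K36me3 of LLC-NR at that near 72 bp. At least 7 libraries within 21 bp were found in 19.4% of all promoters, and in 24.3% of the promoters whose total over the 8 libraries was within 2 peaks of that of Vegfa (44). The largest number was 6 at Vegfb, at -961 to -955 bp, 5 at Pgf, at 254 to 268 bp, 5 at Figf, at 229 to 245 bp, and 4 at Vegfc, at -527 to -524 bp. The positions of Vegfc were thus shared by fewer libraries than those of the other ligands. At least 5 libraries were found in 71.5% of promoters and at least 4 in 90.0%.

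The DNA under the upstream position shared by most libraries is shown because it is the sequence on which these nucleosomes sat. Capitals mark CpGs. The stretches are chr17:46169874-46170020 on the minus strand for Vegfa (7 libraries), chr19:7063028-7063174 on the minus strand for Vegfb (6), chr12:86519103-86519249 on the minus strand for Pgf (4) and chr8:55162288-55162434 on the plus strand for Vegfc (4). None overlaps an annotated exon, and the stretch at Vegfb lies within Dnajc4. At Pgf a position near -222 bp was also shared by 4 libraries, of both lines, and the one farther from the TSS is shown. Figf is left out because its upstream position, near -460 bp, overlaps an exon of Pir.
Vegfa: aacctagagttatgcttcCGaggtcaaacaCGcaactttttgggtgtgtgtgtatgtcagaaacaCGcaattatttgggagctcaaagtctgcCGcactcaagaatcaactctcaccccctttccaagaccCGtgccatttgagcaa
Vegfb: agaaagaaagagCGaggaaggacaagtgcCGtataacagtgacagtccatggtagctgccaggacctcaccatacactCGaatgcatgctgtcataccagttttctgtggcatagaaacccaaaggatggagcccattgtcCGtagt
Pgf: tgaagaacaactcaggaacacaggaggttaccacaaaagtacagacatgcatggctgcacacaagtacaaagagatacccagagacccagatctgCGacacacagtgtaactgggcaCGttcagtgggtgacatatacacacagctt
Vegfc: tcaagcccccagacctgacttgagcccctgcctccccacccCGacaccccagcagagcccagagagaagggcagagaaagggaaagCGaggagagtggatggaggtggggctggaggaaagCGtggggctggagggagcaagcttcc

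They held 5, 4, 2 and 3 CpGs and a G/C content of 46.9%, 49.0%, 47.6% and 64.6%. In 3 of the 4 this was below the G/C content of the 150 bases before the TSS printed above, which was 63.3% at Vegfa, 80% at Vegfb, 67.3% at Pgf and 64.7% at Vegfc, and at Vegfc it was about the same.

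At Pgf only LLC-R libraries had a midpoint within 37 bp of the position near -930 bp. All 4 marks of LLC-R had a midpoint at -939 to -922 bp, and the nearest midpoint of any LLC-NR library was 68 bp away. That nearest peak, of H3K9ac at -862 bp, overlaps the position and would count as shared within 73 bp. The pattern of LLC-R midpoints without one of LLC-NR within 37 bp was noticed on the map of peaks and then counted over all promoters. A position held by all 4 marks of LLC-R and by no LLC-NR library within 37 bp was found in 0.720% of promoters, and the reverse in 0.411%. Further towards the TSS the LLC-R midpoints of the 4 marks lay at -691 to -656 bp and at -415 to -390 bp, while the LLC-NR libraries of H3K4me3, H3K9ac and H3K27me3 had midpoints at -531, -529 and -534 bp. The H3K36me3 library of LLC-NR had a midpoint at -376 bp, within 37 bp of that of LLC-R at -401 bp, so the position at -415 to -390 bp was not free of LLC-NR peaks. The 4 libraries of a line come from tumors of that line only, so the line and anything else the libraries of a line share cannot be told apart.

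Between the lines, 10 of 24 LLC-NR peaks of H3K4me3 in ligand promoters had an LLC-R peak within 37 bp (41.7%, exact 95% interval 22.1% to 63.4%), beside 47.6% over all promoters. The share was 18 of 30 for H3K9ac (60%, 40.6% to 77.3%), 10 of 24 for H3K27me3 (41.7%, 22.1% to 63.4%) and 8 of 19 for H3K36me3 (42.1%, 20.3% to 66.5%), beside 49.6%, 48.1% and 45.9%. The share over all promoters lay within the interval for each mark. These intervals treat the peaks of a promoter as independent and do not measure spread over genes or tumors, so nothing is concluded from them. LLC-R had a peak at 5 of the 6 H3K9ac positions of Vegfa, at 1 of the 7 H3K27me3 positions of Vegfc and at 0 of the 2 H3K4me3 positions of Figf.

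ACGTG is a form of the core of the hypoxia response element through which hypoxia-inducible factors act on Vegfa. Other forms of the core were not searched. ACGTG was matched 1 time in the promoter of Vegfa, 3 times at Vegfb, 2 times at Pgf, 1 time at Figf and 0 times at Vegfc, and 59.4% of promoters held a match. Matches on both strands were counted, so the palindrome at -288 bp of Vegfb counted 2 times. The match of Vegfa starts at -923 bp (chr17:46170245-46170249) and those of Pgf at -888 bp (chr12:86519130-86519134) and -579 bp (chr12:86518821-86518825), where the match is on the opposite strand and reads CACGT. They are printed with 10 bases on each side and the match in capitals.
Vegfa: cacagtgcatACGTGggtttccaca
Pgf, -888 bp: tgtaactgggCACGTtcagtgggtg
Pgf, -579 bp: gttctggaggCACGTagcttgtctt

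The Vegfa match lay under a peak, with a midpoint within 73 bp, in 6 of 8 libraries, and the H3K4me3 and H3K36me3 libraries of LLC-R were the ones without. At least 6 libraries covered 25.1% of the 28619 matches in all promoters. The Pgf match at -888 bp was covered in 5 libraries, all 4 of LLC-R and H3K9ac of LLC-NR, and the one at -579 bp in 3, all of LLC-NR. A match is a string of letters, and no binding was measured.

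In the gene bodies, from 0.5 kb downstream of the TSS to the end of the gene, peaks were counted per kb. H3K4me3 peaks were dense in the body of Vegfb, with 4.27 (LLC-NR) and 3.63 (LLC-R) peaks per kb (percentiles 98.4 and 93.6). This density was not limited to the body. From 10 kb to 1 kb upstream of the Vegfb TSS it was 4 and 3.67 (97.3 and 95.9). In the 10 kb downstream of the gene it was 4.3 and 4 (99.4 and 99.2). H3K4me3 peaks were also dense in the body of Vegfa, with 3.49 and 3.56 (87.3 and 92.1). In Vegfa the part of the body nearer the TSS, of 7.44 kb, had 4.43 and 4.03 H3K4me3 peaks per kb, and the rest, of equal length, 2.55 and 3.09 (percentiles 50.2 and 79.2). Vegfc, with the longest body, 108 kb, had 2.46 and 2.47 H3K4me3 peaks per kb, below the median gene in both lines, and Figf had 2.68 and 2.82. H3K36me3, the mark of transcribed bodies, was at 3.63 and 4.30 peaks per kb in Vegfa (percentiles 69.4 and 81.9), 3.85 and 4.27 in Vegfb (79.5 and 79.2), 2.88 and 3.56 in Vegfc (39.1 and 20.5) and 3.27 and 4.14 in Figf (54.7 and 63.9).

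Pgf had the highest scaled body difference of the 5 ligands in H3K4me3 and H3K36me3, but not in H3K9ac and H3K27me3. Its H3K4me3 density was 2.85 (LLC-NR) and 3.74 (LLC-R) peaks per kb (percentiles 59.9 and 95.2), and its H3K36me3 density 2.66 and 4.23 (30.4 and 74.7). Scaled so that the pooled density of all bodies was equal, these were log2 differences of 0.38 (exact 95% interval -0.35 to 1.13) and 0.33 (-0.40 to 1.08). A body density at least 1.25-fold higher in LLC-R was seen in 1 ligand for H3K4me3 and 1 for H3K36me3, Pgf in both, beside 6.06% and 13.9% of all bodies, and in 0 for H3K9ac and H3K27me3, beside 1.76% and 23.8%. A density at least 1.25-fold lower was seen in 0 ligands for every mark, beside 7.97%, 2.6%, 9.27% and 5.88% for H3K4me3, H3K9ac, H3K27me3 and H3K36me3. Scaled on the libraries' own numbers of peaks, the H3K36me3 difference of Pgf was 0.23, under the 1.25-fold limit of 0.32, and scaled on uniquely mapped reads it was -0.54. Both values of Pgf lay within the central 95% of the genes of like body length, which ran from -0.54 to 0.50 for H3K4me3. The scaled density was higher in LLC-R in 3 ligands for H3K4me3, 2 for H3K9ac, 0 for H3K27me3 and 1 for H3K36me3, beside 43.8%, 49.2%, 54.0% and 45.9% of bodies. In H3K27me3 all 5 were lower, with log2 differences from -0.19 (Vegfb) to -0.07 (Figf).

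**Figure D4:**
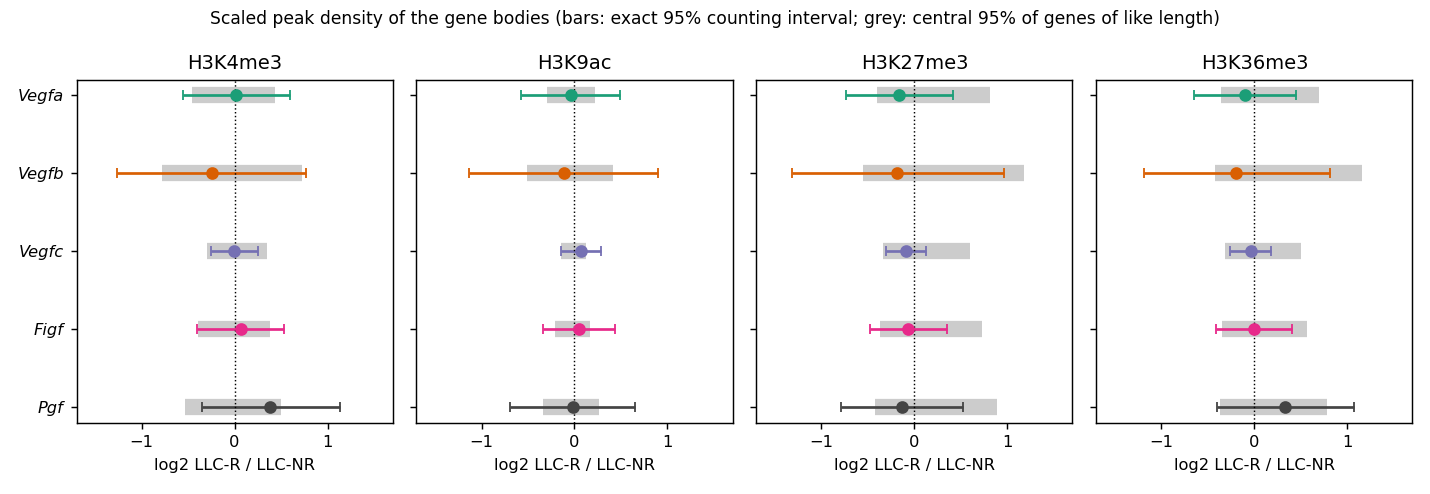
Log2 ratio of the scaled peak density of the gene body between LLC-R and LLC-NR (x axis) for the 5 ligands and 4 marks. Bars are exact 95% intervals, which cover counting error only, and grey bands the central 95% of genes with a body of 0.5 to 2 times the length. All 20 bars cross 0, and Pgf stands farthest right in H3K4me3 and H3K36me3.

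The surroundings of some ligands differed between the lines too, by amounts within the central 95% of all genes. Within 1 Mb of the TSS of Pgf, the share of the library's H3K4me3 peaks was higher in LLC-R by 0.18 on the log2 scale (percentile 94.8 of all genes) and that of H3K27me3 by 0.15 (percentile 88.9), while those of H3K9ac and H3K36me3 differed by 0.02 and -0.01. Within 1 Mb of Vegfb the share was lower in LLC-R, by -0.16 for H3K4me3 (percentile 5.62) and -0.08 for H3K9ac (percentile 3.71). Around Vegfc the differences were between -0.05 and -0.01 in the 4 marks. Scaled on the peaks within 1 Mb, the log2 difference of the Pgf body was 0.22 in H3K4me3 and 0.24 in H3K36me3, both under the 1.25-fold limit (0.32).

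Of the receptors of the ligands, Flt1, Kdr, Flt4, Nrp1 and Nrp2, 1 had more H3K27me3 promoter peaks in LLC-R and 3 had fewer, beside 58.5% and 15.0% of all promoters. Their median was 7 (LLC-NR) and 5 (LLC-R), against 4 and 6 for the ligands, and 5 and 6 for all promoters. Flt1 held 7 and 6 H3K27me3 peaks, Kdr 7 and 5, Nrp2 7 and 5, Flt4 4 and 4, and Nrp1 6 and 7. H3K9ac had a median of 6 and 4 in the receptors and of 6 and 6 in the ligands. In LLC-R, 0 receptors had more H3K9ac peaks and 3 had fewer, which is near the share of all promoters, 19.2% and 50.6%. In H3K4me3 the receptors had medians of 6 and 5. Flt4, the receptor of VEGF-C and VEGF-D, was lowest with 3 peaks in both lines. Nrp1, a co-receptor, held 8 (LLC-NR) and 5 (LLC-R), Kdr 6 and 4, Nrp2 5 and 5, and Flt1 6 and 7. At least 2 H3K4me3 peaks fewer in LLC-R were thus seen at 2 receptors and at least 2 more at 0, beside 18.4% and 9.0% of all promoters.

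Of 30 genes that act downstream of the receptors 29 were found. In H3K27me3, 5 of them had at least 2 peaks more in LLC-R and 1 at least 2 fewer, beside 31.9% and 3.46% of all promoters. In H3K4me3 it was 2 and 5 of them, near the 9.0% and 18.4% of all promoters. Hspb1, a heat shock protein phosphorylated downstream of p38 kinase, held 3 (LLC-NR) and 4 (LLC-R) H3K4me3 peaks, the lowest of the list in LLC-NR and tied with other genes in LLC-R. Plcg1, a phospholipase bound by activated Kdr, held 6 and 8, and Nfatc2, a transcription factor activated by calcium, 7 and 4. Of the 10 regulators and processing enzymes, 5 had at least 2 H3K27me3 peaks more and 0 at least 2 fewer, with medians of 5 and 6.5, beside the same 31.9% and 3.46% of all promoters. Arnt, the partner of the hypoxia-inducible factors, held 8 H3K4me3 peaks in both lines, Hif1an, which hydroxylates them, 8 and 6, and Egln3, a prolyl hydroxylase of the same pathway, 4 and 7. Plg, the precursor of plasmin, held 2 and 3.

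Over 16 percentiles, of the promoter number and the body density in the 8 libraries, the Euclidean distance between 2 ligands was 108 to 174 percentile points. The median distance of a ligand to all genes was 134 to 147. Vegfa and Vegfb (108) and Pgf and Figf (109) were the closest pairs, and Vegfa and Vegfc (174) the farthest. The nearest genes to Vegfa were Fdps and Cpsf3 (50.6 and 50.7), to Vegfb Zfp229 and Apba3 (40.6 and 52.0), to Pgf H28 and Mrc2 (69.2 and 71.5), to Vegfc Sp9 and Lmbr1 (48.8 and 52.3), and to Figf Dpep2 and 1700008P02Rik (39.2 and 53.2).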

How the data were processed

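Peak lists of 8 MNase-ChIP-seq libraries were used, 1 per line and mark. The authors mapped the reads to mm9 with Bowtie 0.12.7, allowing 2 mismatches, and kept reads with a single place in the genome. Peaks were called by GeneTrack, library by library, and its settings are not given in the sources used here. The deposited values are the start and end of each peak, with no score, height or strand, and reads per peak are therefore unknown. Neither input nor IgG data were used here.

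Genes were taken from GENCODE vM1 on NCBIM37, the assembly of mm9, with the TSS shared by most transcripts. A peak counted where its midpoint lay. The promoter began 1 kb before and ended 0.5 kb after the TSS, and the body ran on to the gene end (bodies of at least 2 kb, 18621 genes, of which those with peaks in both libraries entered ratios). Percentiles are mid-ranks within a library. CpG classes followed the rule of the methods, with windows of 500 bp, an O/E ratio of CpG above 0.6 at a G/C share over 55% for HCPs, and below 0.4 for LCPs. States use the mean as threshold, since 2 times the mean of the active marks lies above the highest promoter number, 9. Intervals are exact 95% (Clopper-Pearson, conditional on the sum for ratios) and cover counting error only. With 1 library per group no test was run between the lines, and a fold of 1.25 or a difference of 2 peaks describes these libraries.

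Counting and ranking were tested on simulated data with known answers. Counts and ranks used NumPy 2.4.6 and pandas 2.3.3 in Python 3.11.15, intervals SciPy 1.17.1, and plots Matplotlib 3.10.9. The 5 ligands are named always, listed genes where their H3K4me3 number differed from the list median by 2 or more, and for each ligand the 2 genes nearest in 16 percentiles. All receptors and their H3K27me3 and H3K4me3 values are also given, chosen after they were seen. Members and lists were chosen with earlier results of these data known. The windows of 21 bp, the positions held by 1 line alone and the coverage of motif matches were chosen after seeing the data. The alternatives changed the promoter, the TSS, the overlap, the threshold, the background, the scaling, the body and the distance that counts as shared.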

Additional observations from a re-analysis of the deposited data

How the results depend on the processing

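Of 112 counts and shares over the ligands recomputed under the alternatives, 92 stayed within 1.5 times the value reported or within its interval. The median as threshold could not change a count, since with whole peak numbers it selects the same promoters as the mean. For counts this small the limit is also wide, and a move from 2 to 3 ligands stayed within it. At or above the mean, counting any overlapping base gave 2 and 3 ligands for H3K9ac in LLC-NR and LLC-R and 4 for H3K27me3 in LLC-NR. CpG-rich promoters as background gave 0 for H3K4me3 in LLC-NR and 3 for H3K9ac in LLC-R, and leaving out promoters that hold no peak in any library gave 2 and 3. Promoters higher in LLC-R numbered 5 for H3K9ac and 0 for H3K27me3 when scaled on uniquely mapped reads, and 1 for H3K9ac without scaling. Bodies higher in LLC-R numbered 5 for H3K4me3, 5 for H3K9ac and 0 for H3K36me3 when scaled on reads, where the log2 difference of Pgf in H3K36me3 turned to -0.54. Without scaling they numbered 0 for H3K9ac, 5 for H3K27me3 and 5 for H3K36me3. Scaling on peaks within 1 Mb gave 1 for H3K27me3, and the stretch from 0.5 kb to 3 kb gave 4 for H3K9ac, 2 for H3K27me3 and 4 for H3K36me3. The direction of a difference thus depends on the scaling, which is shared by all genes of a library, while percentiles do not. No paired analysis was possible because each line and mark has 1 library, and no replicate could be left out. A stricter peak threshold was not run, since no height is given. Peak numbers saturate, and variation between tumors was not measured.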
